A study of Drosophila melanogaster with 2 samples.

Results

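Of the 8963 sites at which GFP-tagged CG1603 was reproducibly found in *Drosophila melanogaster* embryos, 1621 lay beside promoters rather than on them. These flanking peaks had their summit more than 500 and at most 2000 bp from the nearest annotated transcription start site (TSS) of any gene and in no exon, so that each was intronic or intergenic. They made up 18.1% of the list (exact 95% interval 17.3 to 18.9). The signal of a peak played no part in choosing them. For comparison, 4426 peaks had a summit within 500 bp of a TSS (promoter peaks), 2671 were over 2000 bp from any TSS and outside exons (distal peaks), and 245 were exonic and outside promoters.

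The tissue was whole embryos of both sexes, 0 to 16 h old, from a line with a stable transgene for CG1603 carrying GFP at its C terminus. The labels disagree on the antibody, with CG1603 in one field and an antibody against GFP in another. All samples belonged to 1 group with 2 biological replicates, numbered 2 and 3, with no second condition, and no control peak list was analysed here. Whole embryos mix all tissues, so that a site used in few cells and a weak site in many cannot be told apart.

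CG1603 is a zinc-finger DNA-binding protein known for regulating nuclear genes that act in mitochondria. In chromatin immunoprecipitation with sequencing (ChIP-seq), fragments bound by such a protein are enriched and sequenced, and the summit of a peak is the base at which the enrichment is highest. In flies, broadly active promoters often carry the DNA replication-related element (DRE, TATCGATA), bound by Dref, the BEAF-32 core CGATA inside it, or Motif 1 (GGTCACACT), bound by M1BP. Sequence within a few kilobases of a promoter, first introns included, often holds enhancers and insulator sites.

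The sequences of 8 flanking summits show the range. Each is 50 bp to either side of a summit, from the plus strand of the RefSeq release 6 assembly (dm6), and none contains exonic bases. The first 3 are the strongest flanking peaks, and they hold neither DRE nor Motif 1 nor the 8-mers around GATGGCGC. The next 3 hold DRE or Motif 1, in capitals. The last 2, chosen after their values were seen, hold 8-mers around GATGGCGC, also in capitals. These were found more often at flanking summits than 500 bp to either side.
ph-p, chrX:2137315-2137415: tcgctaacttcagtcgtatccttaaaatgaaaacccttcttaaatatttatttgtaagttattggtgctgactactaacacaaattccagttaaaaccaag
CG11050, chr2L:6612660-6612760: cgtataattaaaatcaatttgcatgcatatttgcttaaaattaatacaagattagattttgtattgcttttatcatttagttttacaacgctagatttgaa
Lk6, chr3R:11760998-11761098: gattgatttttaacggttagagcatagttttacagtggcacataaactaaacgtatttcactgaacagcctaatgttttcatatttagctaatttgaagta
Tim17b, chr3R:3734110-3734210: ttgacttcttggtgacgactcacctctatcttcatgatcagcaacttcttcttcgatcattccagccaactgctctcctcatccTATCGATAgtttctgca
mRpS5, chr3L:24536118-24536218: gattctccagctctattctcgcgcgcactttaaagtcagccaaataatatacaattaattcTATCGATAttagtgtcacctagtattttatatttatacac
CG7824, chr3R:29859900-29860000: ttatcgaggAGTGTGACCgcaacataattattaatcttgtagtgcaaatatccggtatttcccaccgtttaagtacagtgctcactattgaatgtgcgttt
sp3, chr3R:21520327-21520427: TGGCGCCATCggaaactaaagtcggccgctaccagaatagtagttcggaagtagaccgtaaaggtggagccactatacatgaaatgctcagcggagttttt
Sid, chr3R:28672332-28672432: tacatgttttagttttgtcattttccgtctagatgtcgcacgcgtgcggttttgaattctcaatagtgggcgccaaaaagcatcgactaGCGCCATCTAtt

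The strongest flanking peaks were among the strongest of the whole list. Peaks are ranked here by the authors' signal value, whose scale is not stated, with rank 1 the strongest of 8963. The strongest flanking peak, of rank 41, lay in an intron of ph-p, which encodes a Polycomb group protein, 510 bp upstream of its nearest TSS (chromosome X, positions 2137174 to 2137548). Its signal was 5006 in replicate 2 and 3879 in replicate 3, rank 41 and 43 of those lists. An intronic peak of CG11050, 1023 bp downstream of the TSS, had signals of 4377 and 3821 in replicates 2 and 3 and rank 45. Both replicates thus placed these sites near the top of their lists.

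The intron of Lk6, a kinase that phosphorylates the translation initiation factor eIF4E, held the peak of rank 70 (3537 and 2934 in replicates 2 and 3), 969 bp upstream of the nearest TSS. The gene for the mitotic histone kinase Haspin had an intergenic peak of rank 84 (3050 and 2408), 1312 bp upstream. A peak of rank 91 (3086 and 2166) was nearest to cbt, a zinc-finger transcription factor gene, but lay in an intron of its neighbour ush, which encodes a cofactor of GATA factors. In these 5 peaks replicate 2 had the higher signal, on a scale that need not be shared between the lists.

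The other members among the 10 strongest were next to CG9663 (rank 87), lncRNA:CR45643 (rank 104), the G protein-coupled receptor kinase gene Gprk1 (rank 117), the phospholipid acyltransferase gene LPCAT (rank 121) and CG3726 (rank 123). On 3L the strongest were in introns of mub, an RNA-binding protein gene (rank 151), and ImpL2, whose product binds insulin-like peptides (rank 173). On chromosome 4 they were near lncRNA:CR43437 (rank 1086) and the Pax6 gene ey (rank 1337). Across the chromosome arms from which at least 100 peaks came, flanking peaks made up 17.4% (3R) to 18.7% (X) of the peaks.

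The flanking sequence held more peaks per base than distal sequence and fewer than promoters. Sequence that meets the rule on position covered 18.8 Mb, or 13.7% of the assembled chromosome arms, and held 86.3 summits per Mb (exact Poisson interval 82.1 to 90.6). Promoter sequence held 246 per Mb (239 to 253), distal sequence 36.2 (34.8 to 37.6) and the whole genome 65.4. Intronic flanking sequence held 1061 members, at 93.2 per Mb (87.7 to 99.0), and intergenic flanking sequence 560, at 75.6 per Mb (69.5 to 82.1). The intervals cover counting error only.

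Within the range the density was lower at greater distance. In bins of 250 bp it was 119 per Mb (108 to 131) up to 750 bp, 88.9 from there to 1000 bp, 79.6 from there to 1250 bp, 75.5 from there to 1500 bp, 72.9 from there to 1750 bp and 70.5 (60.7 to 81.4) in the last bin to 2000 bp. The nearest bin exceeded the farthest 1.69-fold (95% interval 1.42 to 2.02). Up to 750 bp the upstream side had 128 per Mb (113 to 144) and the downstream side 107 (92.1 to 125), with intervals that overlap. Over the whole range the sides held like numbers, 805 upstream and 816 downstream. Just inside the near limit, up to 550 bp, 102 peaks had a median rank of 4811, and just outside it, at 451 to 500 bp, 93 had 3887. At 1951 to 2000 bp 32 peaks had a median rank of 5732, and at 2001 to 2050 bp 43 had 4729.

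**Figure D1:**
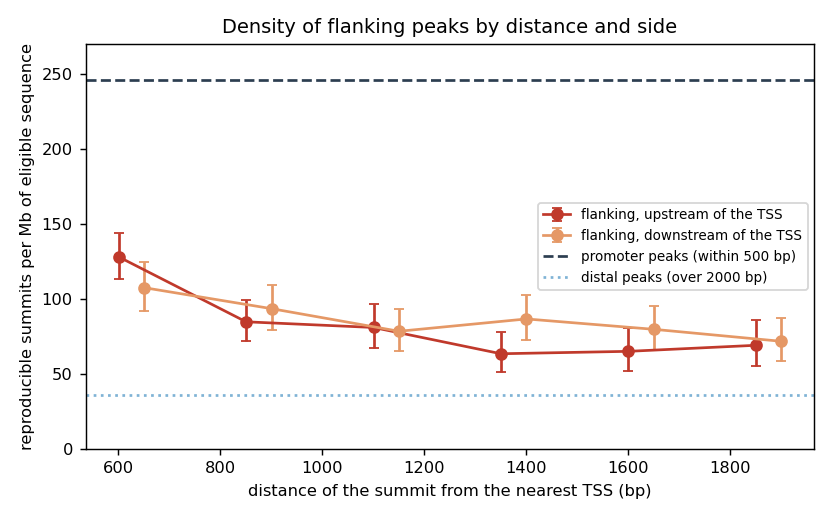
Reproducible summits per Mb of eligible sequence (y axis) in 250 bp bins of distance from the nearest TSS (x axis, bp), upstream and downstream; bars are exact 95% Poisson intervals and points are offset for legibility. The upstream series starts at 128 per Mb and the downstream one at 107, and all points lie between the lines for distal (36.2) and promoter sequence (246).

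Flanking peaks were weaker than promoter peaks, and their ranks lay nearer to those of distal peaks. Their median rank was 5155, against 3652.5 for promoter and 5295 for distal peaks. The strongest 25% of the list held 21.6% of flanking peaks and 30.7% of promoter peaks (odds ratio 0.622, p = 1.5e-12 in a two-sided Fisher's exact test, exact 95% interval 0.542 to 0.712). With the stronger 50% of the list alone, the same comparison did not pass (odds ratio 0.964, 0.793 to 1.17, p = 0.736, exact test). Against distal peaks, of which 18.5% were in the strongest 25%, the odds ratio was 1.22 (1.04 to 1.42, exact p = 0.0126). It did not pass when the stronger 50% of the list replaced the strongest 25% (1.10, exact p = 0.125). Peaks are not independent replicates, and all such p-values describe these 2 libraries.

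Along the ranking, flanking peaks took 16.6% of ranks 1 to 896, 13.2% of ranks 1794 to 2689 and 22.7% of ranks 7171 to 8067. Intronic members were in the strongest 25% in 22.0% of cases and intergenic ones in 20.9% (odds ratio 1.07, 0.824 to 1.38, exact p = 0.657). Within 1000 bp of the TSS the shares were 24.4% and 17.6% (odds ratio 1.52, 1.03 to 2.25, exact p = 0.0288), and beyond it 20.0% and 24.2% (odds ratio 0.782, 0.550 to 1.12, exact p = 0.157).

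**Figure D2:**
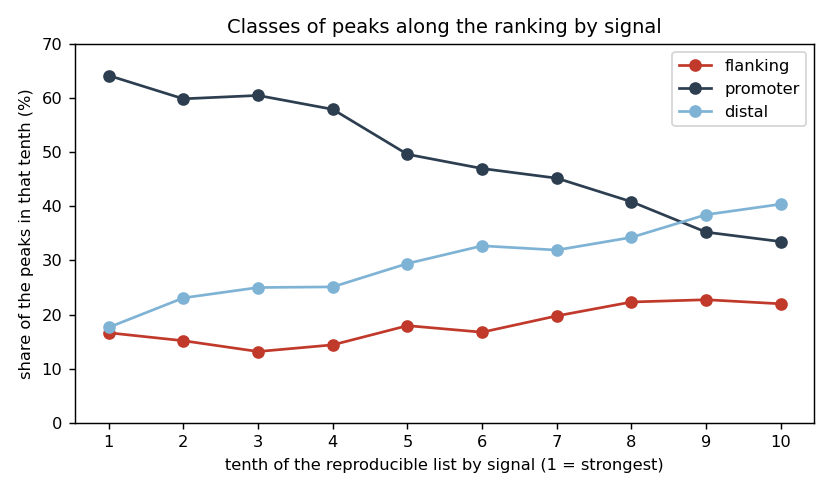
Share of flanking, promoter and distal peaks (y axis, %) in 10 equal groups of the reproducible list by signal (x axis, 1 = strongest). The flanking share lies between 13.2% and 22.7%, while promoter peaks make up 64.2% of the strongest group and 33.5% of the weakest.

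The reproducible list was itself derived from both replicates, per the deposited description files, so that a high share found in both was set in part by how the list was made. Of the 1621 flanking peaks, 1593 (98.3%) overlapped, by at least 1 bp, a peak in each replicate's list, 14 in replicate 2 only and 14 in replicate 3 only. The share was 98.3% for distal peaks too (odds ratio 0.997, 0.607 to 1.66, exact p = 1). Promoter peaks had 97.0% (odds ratio 1.78, 1.17 to 2.78, exact p = 0.00515), and of the rest 29 were in replicate 2 only and 105 in replicate 3 only. With the 8963 strongest peaks of replicate 2 in place of the reproducible list, which leaves replicate 3 out of the choice, the odds ratio was 0.769 (exact p = 0.116). Across the 1593 members with both values, Spearman's rho between the replicates' signals was 0.843, a description across peaks that share 2 libraries. The strongest overlapping peak was taken, and its summit was over 100 bp from that of the member in 28 cases in replicate 2 and 35 in replicate 3, so that some values belong to a neighbouring summit. With peaks whose summit was within 100 bp, a choice made after seeing the data, rho was 0.841 over 1565 members.

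The strongest members seen in replicate 2 alone were in an intron of the zinc-finger gene zf30C (rank 2086, signal 278 in replicate 2), near Timp, a metalloprotease inhibitor gene (rank 2692, signal 271), and near CG43922 (rank 5405, signal 114). Those of replicate 3 alone were near the gene with the symbol a (rank 4863, signal 156), in the copper transporter gene Ctr1A (rank 5359, signal 141) and in ari-1, a ubiquitin ligase gene (rank 5519, signal 140). All members stronger than the zf30C peak had a partner in each list.

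**Figure D3:**
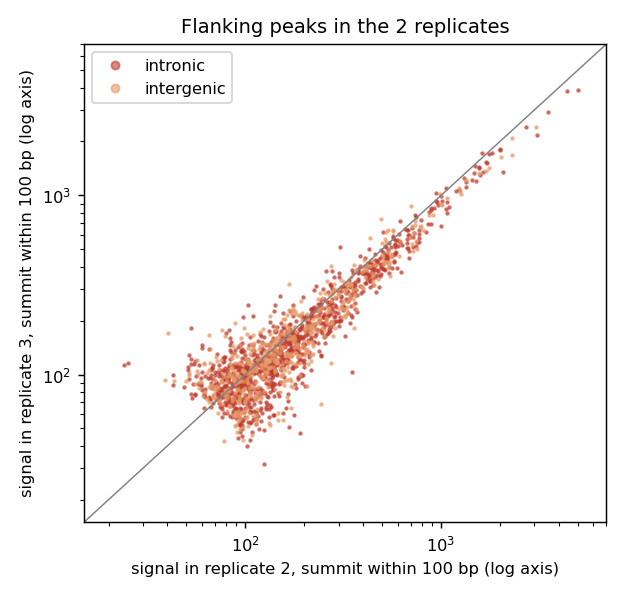
Signal in replicate 3 (y axis) against replicate 2 (x axis), both on log axes, for the 1565 flanking peaks with a summit within 100 bp in both, intronic and intergenic in different colours; the grey line marks equal signal. The points rise together (Spearman's rho 0.841), with a wider spread among weak peaks.

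For many flanking peaks the promoter beside them was bound as well. The nearest TSS had its own reproducible summit within 500 bp for 675 flanking peaks (41.6%), against 34.5% for distal peaks (odds ratio 1.35, 1.19 to 1.54, exact p = 3.18e-06). Of all 23358 annotated TSS positions, 28.8% had one. Distal peaks are farther from their TSS by definition. Among the 675, the promoter peak was the stronger of the pair in 391 (57.9%), with a median rank of 3366, and the flanking peaks themselves had 4912. The summits of a pair were a median of 1081 bp apart.

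Over all members, those upstream of the TSS lay beside a bound promoter less often than downstream ones. Among intergenic members alone the order was the reverse. The shares were 32.7% upstream and 50.5% downstream (odds ratio 0.476, 0.387 to 0.585, exact p = 3.48e-13). Intronic members downstream had 55.9%, and 626 of those 690 were in an intron of the very gene whose TSS was nearest. Upstream the share was 25.9% for intronic and 38.5% for intergenic members, and downstream intergenic members had 20.6%. Of the 371 upstream intronic members, 248 also lay within the gene whose TSS was nearest, upstream of a later TSS of that gene. The ph-p, Haspin and cbt members had a bound promoter of rank 4851, 159 and 202, and the CG11050 and Lk6 members had none. Sequence with at least 30% masked or unknown bases per 100 kb held 5.43% of flanking peaks, 3.19% of promoter peaks and 4.68% of distal peaks. It held 9.19% of flanking peaks beside a bound promoter. The part of such sequence in the result on bound promoters was not tested.

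**Figure D4:**
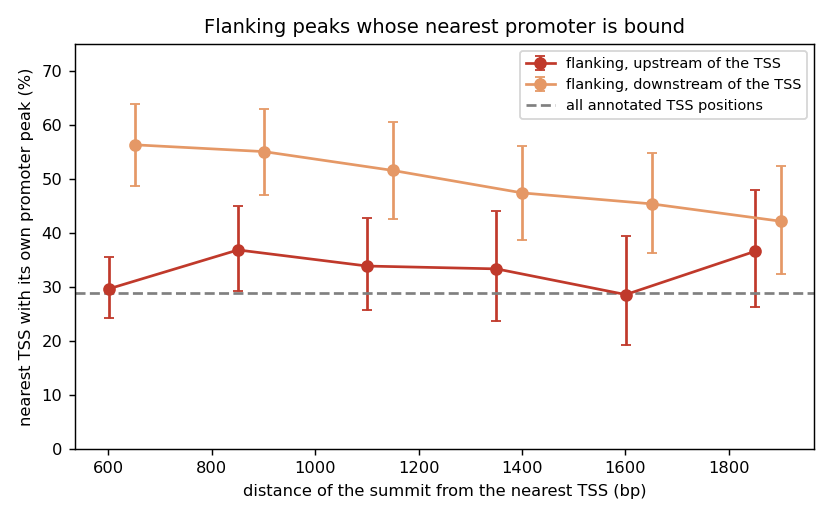
Share of flanking peaks whose nearest TSS has its own promoter peak (y axis, %) by distance from that TSS (x axis, bp, 250 bp bins), upstream and downstream; bars are exact 95% binomial intervals and the dashed line is the share over all annotated TSS positions (28.8%). The downstream points run between 42.2% and 56.3% and the upstream ones between 28.6% and 36.8%.

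DRE and Motif 1 were rare at flanking summits, and all 3 promoter elements named above were less frequent there than at promoter summits. Motifs were searched on both strands within 50 bp of the summit, 19 in all, and Fisher's exact tests (two-sided) were adjusted over the 19 by the Benjamini-Hochberg method. Against promoter peaks, 5 motifs were more frequent (26.3%) and 5 less frequent (26.3%), with 0.0242 the largest adjusted exact p among the 10. DRE was at 16 flanking summits (0.987%) and at 8.54% of promoter summits (odds ratio 0.107, 0.0602 to 0.176, adjusted exact p = 2.36e-33). Its core CGATA was at 13.4% of flanking and 34.3% of promoter summits (odds ratio 0.296), and Motif 1 at 0.247% and 4.84% (odds ratio 0.0487). The E-box CAGCTG, bound by helix-loop-helix proteins, was at 3.82% of flanking and 8.74% of promoter summits, and CACGTG at 0.432% and 1.29%. Over all 8963 summits DRE was found at 4.61% and Motif 1 at 2.54%.

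The motifs more frequent at flanking than at promoter summits were the E-box CATATG (5.68% and 3.12%), the TATA box TATAAA (17.2% and 12.1%), the Su(Hw) core TGCATACT (0.925% and 0.362%), the homeodomain core TAATTA (8.64% and 5.94%) and the GATA site AGATAA (8.76% and 6.33%). Flanking summits had a mean GC content of 35.5% ± 8.43 (SD, n = 1621) against 40.1% at promoter summits, and its part in these differences was not tested. With windows of 100 bp to either side, the TATA box and homeodomain calls were lost. With members up to 1000 bp alone, the Su(Hw), homeodomain and GATA calls and that of CACGTG were lost. The CACGTG call was also lost without replicate 2 (adjusted exact p = 0.163), and the GATA call in the stronger 50% of the list (adjusted exact p = 0.276).

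Against distal summits, 0 of the 19 motifs (0%) were more frequent and 0 (0%) less frequent. At an unadjusted p under 0.05 there were 2, CAGCTG (3.82% flanking, 2.58% distal) and TATAAA (17.2% flanking, 20.1% distal). The DRE odds ratio was 1.76, with an interval of 0.815 to 3.84 (adjusted exact p = 0.743). For members up to 1000 bp alone, CAGCTG passed (5.17% flanking, 2.58% distal, adjusted exact p = 0.0157).

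**Figure D5:**
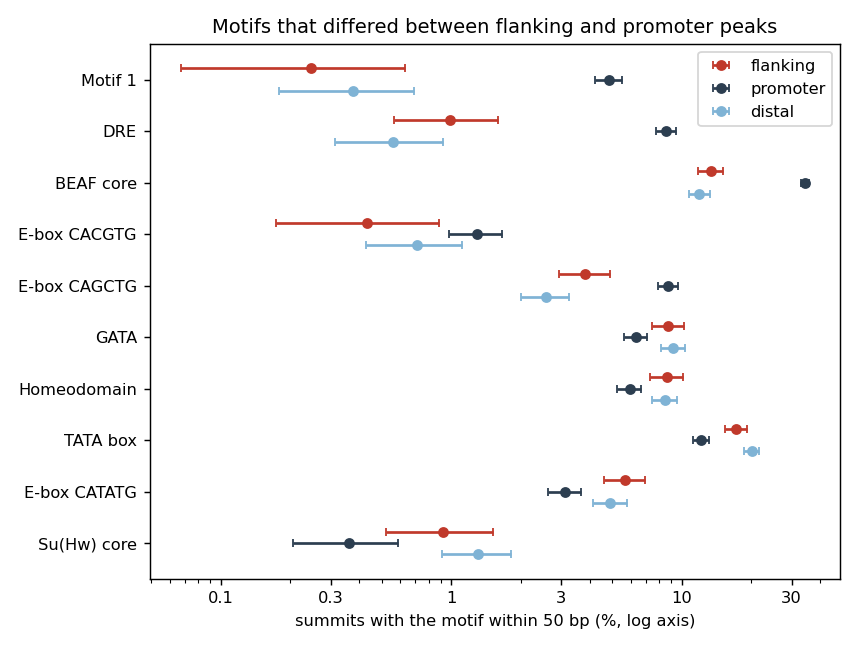
Share of summits with each motif within 50 bp (x axis, %, log axis) for the 10 motifs that differed between flanking and promoter peaks (y axis), with distal peaks beside them; bars are exact 95% binomial intervals. Motif 1, DRE and the BEAF core lie far to the right for promoter peaks, and flanking and distal points lie close together.

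Set against windows 500 bp to either side, flanking summits were enriched for 5 motifs (26.3%) and depleted of 2 (10.5%), with 0.0242 the largest adjusted exact p among the 7. Such windows can reach into promoters and exons. CATATG, the TATA box, the GATA site, the Su(Hw) core (0.925% at summits, 0.308% in flanks) and the CTCF core AGGTGGCG (0.864% and 0.278%) were more frequent. The GAGA repeat GAGAGAG (0.864% at summits, 2.96% in flanks) and the CA repeat CACACACA (1.36% and 3.70%) were less frequent. Summits were AT-rich relative to these flanks, with a mean GC content of 35.5% against 41.0%. DRE, at 0.987% of summits and 0.432% of flanks, did not pass (odds ratio 2.30, 1.05 to 5.10, adjusted exact p = 0.0725). It passed in the stronger 50% of the list (adjusted exact p = 0.0461), with protein-coding TSSs (0.0122) and with windows of 100 bp to either side (0.0341). Motif 1 (0.247% and 0.0617%, 0.173) passed without replicate 2 (0.0465) and without replicate 3 (0.04435). The BEAF core passed without replicate 2 (0.0209) and with those windows (0.00239). The homeodomain core passed without replicate 3 (0.04435), in the stronger 50% (0.0433) and over 1000 bp (0.0466). CACGTG passed as less frequent without replicate 3 (0.04435), over 1000 bp (0.03965) and with flanks at 1000 bp (0.0236). The CATATG call was lost without replicate 3 (adjusted exact p = 0.0615) and with members over 1000 bp (0.443), and the GATA call in the stronger 50% (0.244). With members up to 1000 bp, the TATA box, GATA, Su(Hw), CTCF and CA repeat calls were lost. The CTCF call was also lost over 1000 bp (adjusted exact p = 0.0994), and the CA repeat call without replicate 2 (0.0834).

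Among all 32896 8-mers, 25 (0.076%) were more frequent at the summits than in the flanks (one-sided Fisher's exact test, adjusted over all 8-mers, with 0.04675 the largest adjusted exact p among the 25). Most were AT-rich, led by TTTAAAAA (5.06% of summits, 2.31% of flanks) and ACATTTTA (3.08% and 1.05%). A group of 4 overlapping ones was not, namely AGATGGCG (1.60% and 0.339%), GATGGCGC (1.30% and 0.216%), TGGCGCCA (1.05% and 0.154%) and GCCATCTA (0.925% and 0.0617%). At least 1 of these 4 was at 39 flanking summits (2.41%), and at 1.54% of promoter and 1.54% of distal summits. The 4 were picked at flanking summits, so the choice itself favours a higher share there. In windows 500 bp to either side the shares were 0.617%, 0.802% and 0.880%, so each class exceeded its own flanks. Those 39 were of median rank 4355, the strongest being near sp3 (rank 288, signals of 990 and 1017 in replicates 2 and 3). The number of 8-mers called was not stable. It was 8 with the strongest peaks of replicate 3 alone, 39 with those of replicate 2 alone, 0 in the stronger 50% of the list and 146 with wider windows. Of the 4 around GATGGCGC, 3 were called without replicate 2, 1 without replicate 3 and 4 with wider windows. None of the 4 was called in the stronger 50%, with protein-coding TSSs, or with members up to or over 1000 bp alone.

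The 16 flanking summits with DRE were spread over the ranking (median rank 2878.5), and 9 lay beside a bound promoter. Tim17b, which encodes a subunit of the mitochondrial inner membrane translocase, had its flanking peak 695 bp upstream (rank 851, signals of 533 and 482 in replicates 2 and 3) and a promoter peak of rank 17. The mitochondrial ribosomal protein gene mRpS5 had one 1068 bp upstream (rank 897, signals of 548 and 422) and a promoter peak of rank 642. The Haspin peak and one near snoRNA:Psi28S-3436b (rank 1164) also held DRE. Masked or unknown bases per 100 kb made up 37.5% around the Tim17b, 34.8% around the mRpS5 and 31.4% around the Haspin peak. Around the snoRNA peak they made up 16.6%. Motif 1 was at 4 flanking summits, near CG7824 (rank 2275), CG42806 (rank 3002), CG31680 (rank 3048) and CG33752 (rank 7165).

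The flanking peaks had 1309 nearest genes, and for 1360 peaks (83.9%) the nearest gene was protein-coding. Most genes had 1 flanking peak (1073), 185 had 2 and 51 had 3 or more. The most, chosen for their count, were at Tlk with 9 (a kinase gene with 8 TSS positions), shn with 6, and CG43658 and NFAT with 5 each. Of all 13968 protein-coding genes, 1074 (7.69%) were nearest to at least 1 member, at 90.6 members per Mb of their flanking sequence. Shares of gene lists below are descriptions without a test, because genes differ in how much flanking sequence they have.

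Signalling pathway genes had a flanking peak in 13 of 36 cases, with 231 members per Mb (143 to 352) and a median rank of 5610, against 5146 for all protein-coding genes. These 13 genes had 21 members, with repeated ones at aop, pnt, Stat92E and sty, and the interval treats members as independent. Mad, the SMAD of the Dpp pathway, had an intronic peak of rank 170 (signals of 1554 and 1421 in replicates 2 and 3). The ETS repressor gene aop had an intergenic one of rank 820, and tkv, a Dpp receptor gene, an intronic one of rank 1985. Insulator and promoter-binding protein genes had one in 3 of 15 cases. They had 5 members on only 6.98 kb of flanking sequence, or 716 per Mb (232 to 1671). Trl, the GAGA factor gene, had 3 of these members, of rank 606, 2276 and 5151. For the member of rank 606 the nearest TSS was shared by 2 genes. The one of rank 5151 lay within both CG42507 and Trl.

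Of 3 lists of nuclear genes for mitochondria, 6 genes had a flanking peak. The respiratory chain list, made of the symbols that start with ND-, Sdh, UQCR-, COX or ATPsyn, had one in 4 of 88 genes, with COX7AL2 (rank 438 and 3125) and UQCR-6.4L (rank 3394) the strongest. The peak nearest to UQCR-6.4L lay in an intron of another gene, Mipp1. Mitochondrial ribosomal proteins had one in 1 of 73 (mRpS5) and the TCA cycle in 1 of 11 (kdn, citrate synthase, rank 3049). Their median flanking sequence per gene was 0.189 kb, 0.057 kb and 1.02 kb, against 0.479 kb for all protein-coding genes. Per Mb of flanking sequence the respiratory chain had 145 members (62.4 to 285), of which COX7AL2 alone gave 4 of 8. The mitochondrial ribosomal proteins had 94.0 (2.38 to 524) and the TCA cycle 85.8 (2.17 to 478), beside 90.6 for all protein-coding genes. The lists are not complete. Among genes outside them, chosen after their values were seen, were the mitochondrial import gene Tim23 (rank 154) and the complex III genes Cyt-c1L (rank 761) and RFeSP (rank 2063). Cytosolic ribosomal protein genes had a flanking peak in 4 of 93 cases, at 164 per Mb (53.3 to 383). Among them were RpL15 (rank 2278 and 3659), whose promoter peak had rank 13, and RpL38 (rank 2311), whose promoter peak had rank 78. Masked or unknown bases per 100 kb made up 35.6% around both RpL15 peaks and 30.4% around that of RpL38.

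Nuclear receptor and ecdysone response genes had a flanking peak in 4 of 21 cases. Per Mb of flanking sequence they had 73.1 members (23.7 to 171), beside 90.6 for all protein-coding genes. Among them were EcR, the ecdysone receptor, at rank 3129, Hr4 at rank 3396 and Hr38 at rank 8651. Neuronal genes had one in 3 of 19, at 57.1 per Mb (15.6 to 146). They were led by elav (rank 1883 and 7112) and fne (rank 6716), both for neuronal RNA-binding proteins. For both elav peaks the nearest TSS was shared by 2 genes. The one of rank 7112 lay in an intron of arg, with signals of 52.7 and 122 in replicates 2 and 3. Muscle genes had one in 2 of 17, zormin (rank 5512) and the tropomyosin gene Tm1 (rank 5822), at 46.9 per Mb (5.68 to 169). Patterning and Hox genes had one in 1 of 33, the Hox gene lab (rank 2782), at 12.0 per Mb (0.303 to 66.7). Chemosensory receptor genes had one in 5 of 179, at 29.2 per Mb (9.47 to 68.1), with Gr89a at rank 2544, Gr93a at rank 2653 and Or10a at rank 7136.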

How the data were processed

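The authors deposited peak lists on dm6 for each replicate, for the pooled replicates and for a reproducible set. For the aligner and peak caller, names and versions were not given in the sources used here. Each deposited peak has a signal value of unstated scale and the −log10 of a q-value, which was not used. The replicate and pooled lists hold 30000 lines each, so they were capped, and read depth is unknown.

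TSSs and exons came from Ensembl release 115, without pseudogenes and transposable elements, and sequence from RefSeq release 6. Eligible sequence was counted base by base. Peaks were compared with two-sided Fisher's exact tests, with conditional odds ratios and exact 95% intervals. The tests were tested on simulated data. The software was SciPy 1.17.1, pandas 2.3.3 and NumPy 2.4.6 under Python 3.11.15.

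Genes named were those nearest to the 10 strongest members, up to 2 on each other chromosome, up to 3 members per list, 4 per promoter motif and 3 per replicate without a partner. The members, motifs, lists and tests were chosen with earlier results of these data known. Where 2 genes shared the nearest TSS, as for 26 members, the gene with the lower identifier was taken. Of the list names, 8 had no match. Alternatives changed the peak list, distance limits, TSSs, windows, flanks and strength threshold.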

Additional observations from a re-analysis of the deposited data

Results flagged for a closer look

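DRE was also found at flanking peaks below the reproducible list, which no comparison above uses. The pooled list held 21037 such peaks, of which 4738 were flanking, and TATCGATA was in 0.591% of their 101 bp summit windows, against 0.327% of windows 500 bp to either side (odds ratio 1.81, unadjusted p = 0.0262 in a two-sided Fisher's exact test, exact 95% interval 1.05 to 3.12). The unadjusted p of the same comparison in the reproducible flanking peaks was 0.0305 (exact test), which did not pass after adjustment over 19 motifs. An excess of DRE over own flanks was not particular to flanking peaks. It was at 0.562% of reproducible distal summits and 0.131% of their flanks (odds ratio 4.30, unadjusted exact p = 0.000997). For promoter peaks the odds ratio was 18.3. Motif 1 in the weaker flanking peaks was at 0.169% of summits and 0.106% of flanks (unadjusted exact p = 0.325).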

How the results depend on the processing

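The direction and call of the DRE share against promoter peaks and of both comparisons of bound promoters were kept under each alternative run. No alternative split the comparison of sides into intronic and intergenic members, between which its direction differed. The flanking share was 17.3% to 18.6% with 1 replicate's strongest peaks, 15.5% in the stronger 50%, 8.41% up to 1000 bp, 9.67% over 1000 bp and 16.5% with protein-coding TSSs. For presence in both replicates against promoter peaks, the odds ratio was 0.769 without replicate 3, 2.07 without replicate 2, 1.47 over 1000 bp, 2.32 up to 1000 bp and 7.97 in the stronger 50%. Against distal peaks (0.997) it was 0.839 without replicate 2, 1.05 without replicate 3, 0.827 over 1000 bp, 1.93 in the stronger 50%, 1.30 up to 1000 bp and 1.02 with summits within 100 bp. In the strongest 25% it was 0.964 against promoter peaks in the stronger 50%, and against distal peaks 1.20 over 1000 bp and 1.10 for the stronger 50% as the limit. Intronic against intergenic members gave 1.52 up to 1000 bp and 0.782 over 1000 bp. At up to 1000 bp, 6 motifs differed from promoter, 1 from distal and 2 from own flanks. The number of 8-mers called was 8 to 39 with 1 replicate, 0 in the stronger 50%, up to 1000 bp and over 1000 bp, 5 with protein-coding TSSs and 146 with wider windows. Of the main 25, 6 were called without replicate 2 and 16 without replicate 3. Genes of the lists with a member numbered 20 in the stronger 50% and 20 up to 1000 bp, against 41. The cause was not tested. The ratio of nearest to farthest bin has no value at up to 1000 bp or over 1000 bp, where bins are missing. Samples could not be paired across conditions because there is only 1 group. Summits and their own flanks are matched by position, but the tests did not use that match. Depth is unknown, so sites absent from a list are not shown to be unbound.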

Other observations

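In the same 4738 weaker flanking peaks, at least 1 of the 4 8-mers AGATGGCG, GATGGCGC, TGGCGCCA and GCCATCTA was at 0.844% of summits and 0.675% of flanks (odds ratio 1.25, p = 0.296 in a two-sided Fisher's exact test, exact 95% interval 0.820 to 1.89), a difference that did not pass.

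The spacing of summits was computed for flanking peaks only, so no share over all peaks stands beside it. By the rule these peaks lie within 2000 bp of a TSS, and promoter sequence held the most summits per Mb. Another reproducible summit lay within 1000 bp of 575 flanking peaks (35.5%) and within 2000 bp of 989 (61.0%), and 548 flanking peaks shared their nearest gene with another member.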
